A study of Homo sapiens with 18 samples.

Results

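The 10 genes described here encode enzymes that make or remove superoxide and peroxides, and their transcripts were measured in IMR90 cells. They are the superoxide dismutases SOD1, SOD2 and SOD3, the catalase CAT, the glutathione peroxidases GPX1, GPX3, GPX4, GPX7 and GPX8, and the NADPH oxidase NOX4. They were taken by gene symbol, 10 of the 56269 genes in the deposited table, and all 10 passed the filter on low values. IMR90 is a widely used line of human lung fibroblasts with a finite life in culture. Cultures received PBS for 6 h, or hyaluronan (HA) made by naked mole-rat skin fibroblasts (cNSF, left at its very high molecular mass and mixed with heat-inactivated hyaluronidase) or the same HA partly fragmented by hyaluronidase that was then heat-inactivated (fNSF), both HA at 20 μg/ml. A further group of each kind was then exposed to 200 μM tert-butyl hydroperoxide (tBHP) for 1 h and collected 5 h after that. There were 3 biological replicates in each of the 6 groups, 18 libraries in all. Cells without tBHP were collected when the pre-incubation ended, so tBHP and the added time with its change of medium cannot be told apart in any value below that is called a tBHP response.

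Superoxide dismutases turn superoxide into hydrogen peroxide and oxygen, in the cytosol (SOD1), the mitochondria (SOD2) or outside the cell (SOD3). Hydrogen peroxide is then removed by catalase in the peroxisome and by peroxidases, among which the glutathione peroxidases also reduce organic hydroperoxides such as tBHP to alcohols. NOX4 works on the other side of this balance, since it makes hydrogen peroxide from NADPH and oxygen and is a major oxidase of fibroblasts.

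The glutathione peroxidases differ at the residue that meets the peroxide, and that site is shown because the genes on either side of the difference are set side by side below. In GPX1, GPX3 and GPX4 the residue is selenocysteine, encoded by a TGA that elsewhere ends a protein, whereas in GPX7 and GPX8 it is cysteine, encoded by TGC. The coding strand around that codon, in capitals, reads as follows in the GENCODE 29 transcripts (GRCh38, codon at chr3:49358132-49358134 on the minus strand for GPX1 and, on the plus strand, at chr5:151025469-151025471 for GPX3, chr19:1105403-1105405 for GPX4, chr1:52606714-52606716 for GPX7 and chr5:55161024-55161026 for GPX8).
GPX1: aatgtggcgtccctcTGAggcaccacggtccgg
GPX3: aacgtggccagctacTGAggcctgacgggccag
GPX4: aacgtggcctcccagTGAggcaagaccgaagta
GPX7: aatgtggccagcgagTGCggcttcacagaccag
GPX8: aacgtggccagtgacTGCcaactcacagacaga

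The promoters of the members that moved furthest up and down are shown with that of CAT. CAT passed the main test in no pre-incubation, but it passed as higher under other settings given with its values below. RefSeq (GRCh38.p14) gave a promoter window for 9 of the 10 genes, SOD1 not among them. The stretches printed end just before the first annotated start of transcription, at chr5:151020341-151020437 for GPX3, chr5:55159921-55160117 for GPX8 and chr11:34438684-34438924 for CAT, all on the plus strand, and capitals mark a GC box (GGGCGG) or a CCAAT box on either strand.
GPX3: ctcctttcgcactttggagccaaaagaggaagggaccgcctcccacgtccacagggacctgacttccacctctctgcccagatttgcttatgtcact
GPX8: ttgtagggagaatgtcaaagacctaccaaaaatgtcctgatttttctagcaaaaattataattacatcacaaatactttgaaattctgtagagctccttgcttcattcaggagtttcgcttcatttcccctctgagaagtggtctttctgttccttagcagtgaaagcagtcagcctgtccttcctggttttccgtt
CAT: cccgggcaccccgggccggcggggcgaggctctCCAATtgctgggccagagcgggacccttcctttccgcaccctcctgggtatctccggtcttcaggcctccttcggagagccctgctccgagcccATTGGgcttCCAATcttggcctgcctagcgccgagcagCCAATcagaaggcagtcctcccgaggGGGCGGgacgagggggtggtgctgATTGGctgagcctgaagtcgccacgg
In these stretches CAT held 5 CCAAT boxes and 1 GC box, and the shorter ones of GPX3 and GPX8 held none of either. The window of GPX3 runs on past that start and held 1 GC box and 2 CCAAT boxes in all. The 9 genes had 16 windows, some of which overlap, and 12 of the 16 held a GC box, against 45.0% of all 35116 windows, and 8 held a CCAAT box, against 34.6%. The core of the antioxidant response element (TGACNNNGC) was in none of the 16, and 13.3% of all windows held it. The same was true of TATAAA, which was in 11.5% of windows. These matches describe letters only and not binding.

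The libraries held 20261103 to 26287660 reads. The 8 fibroblast markers had mean normalized read counts of 412 to 263802, and 8 markers of epithelial, endothelial and blood cells summed to between 7.72 and 21.3 per library, with CDH5 and SFTPC at 0 in all 18. After tBHP 1 of the 8 fibroblast markers rose and 3 fell in PBS and in cNSF cells, and 1 rose and 2 fell in fNSF cells, beside 51.1%, 50.8% and 41.9% of all genes that passed. Among those that fell was LUM, a matrix proteoglycan, from a mean of 565 to 225 in PBS cells. LUM was also higher in fNSF than in PBS cells after tBHP, at 344 (limma adjusted p = 0.0261), beside 0.139% of all genes. No gene passed in that comparison without fNSF + tBHP replicate 1 or 2, or without PBS + tBHP replicate 3. The part of shifts in these markers in the results was not tested. Library values below are normalized read counts, which scale the reads of each gene by a DESeq2 size factor per library. They are given in the order of replicates 1, 2 and 3. Differences were tested on the log2(value + 1) scale with limma over 13686 genes and are given with a standard error (SE) or a 95% interval and a Benjamini-Hochberg adjusted p over all of those genes. A lower count in bulk RNA can stand for fewer cells of a kind or for less RNA per cell, and these cannot be told apart.

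In PBS cells without tBHP the level per kilobase of median transcript length was 3351 normalized reads for GPX8, 3275 for GPX1, 3225 for GPX4 and 2827 for SOD1. SOD2 stood at 1521, CAT at 404 and NOX4 at 165 on that scale, and SOD3, GPX7 and GPX3 lay at 20.4, 20.2 and 13.0 in turn. The panel thus covered abundant transcripts and transcripts with under 100 reads in every library. The order of the 4 highest depends on the length used: per kilobase of all exons together GPX1 stood at 1838, GPX4 at 1382, SOD1 at 1282 and GPX8 at 1222, and NOX4 at 53.2. The length of SOD2 is the least certain, since its transcripts have a median of 991 bases and its exons together span 18206.

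**Figure D1:**
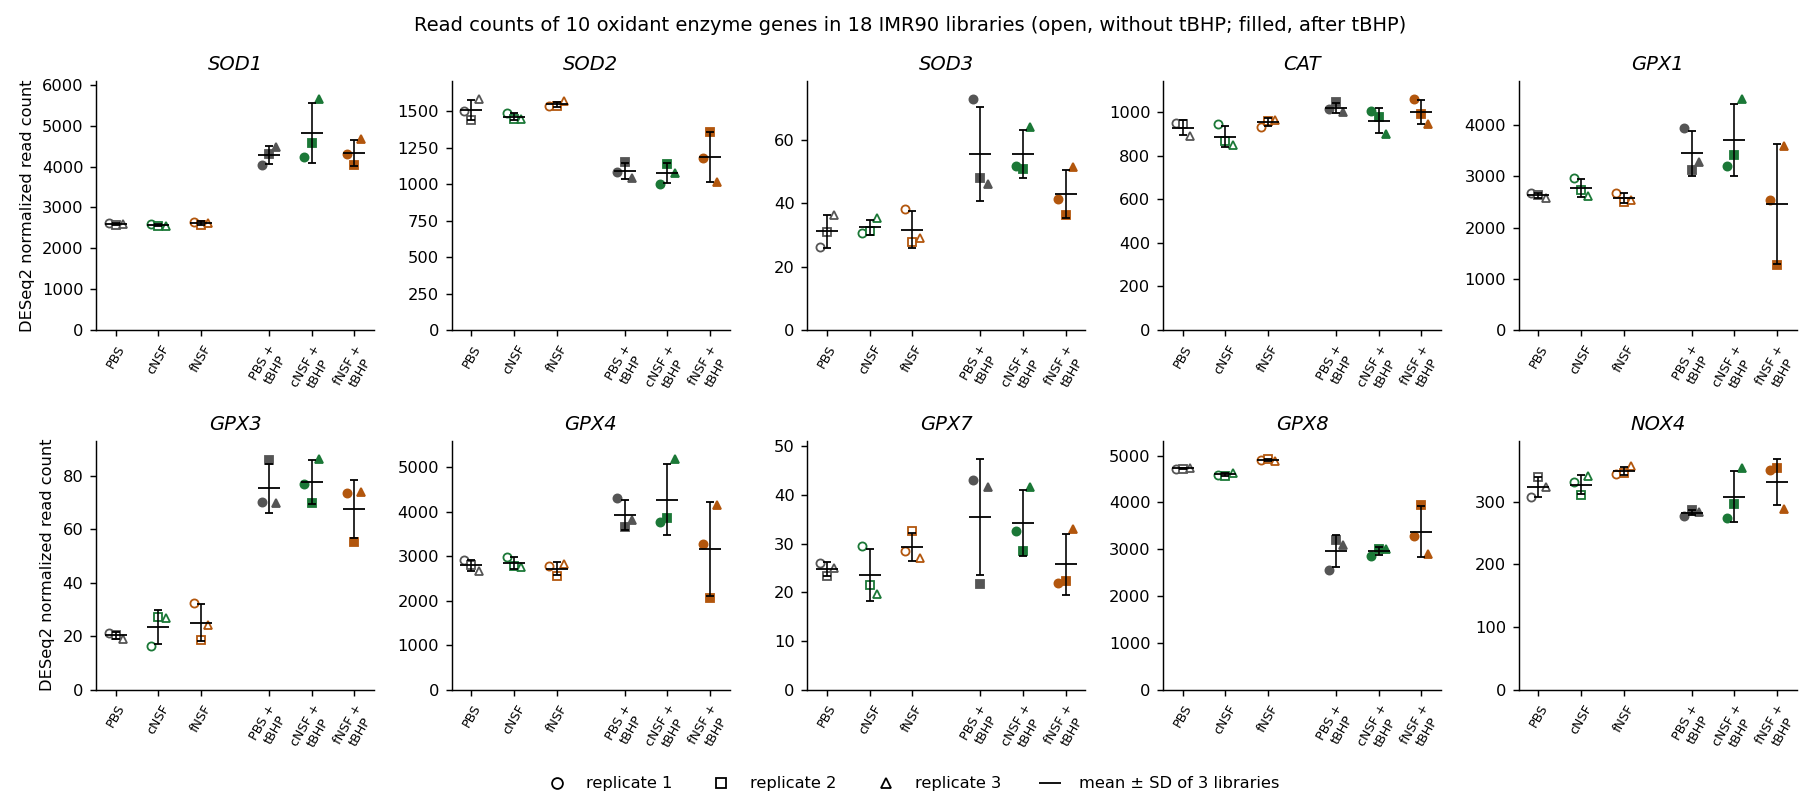
Normalized read counts of the 10 genes in 18 libraries, by group on the horizontal axis; symbols are the 3 replicates, bars the mean ± SD, open symbols cells without tBHP and filled symbols cells after tBHP. SOD1 lay between 2546 and 2654 in the 9 libraries without tBHP and between 4039 and 5640 after it, while GPX1 spread from 1264 to 3591 among the fNSF libraries after tBHP.

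After tBHP, 4 members rose and 2 fell in PBS cells, and the 4 others did not pass the test. Over all genes tested 51.1% passed, 24.2% as higher and 26.9% as lower, so that a gene in these cells passed about as often as not. The balance between directions turned with the scaling between libraries, from 3317 higher and 3678 lower genes to 3945 and 3248 under TMM factors in PBS cells, and likewise in cNSF and fNSF cells. GPX3, the secreted plasma peroxidase, rose 3.58-fold (95% interval 2.59 to 4.95), SOD1 rose 1.65-fold (1.46 to 1.86), and SOD3 and GPX4 rose 1.74-fold and 1.40-fold. GPX8, a peroxidase of the endoplasmic reticulum, fell to 0.622 of its level (0.544 to 0.711) and SOD2 to 0.724 (0.638 to 0.822). In cNSF cells the same genes passed in the same directions, 4 up (background 24%) and 2 down (26.8%, or 50.8% in either direction), and in fNSF cells SOD1 and GPX3 rose and SOD2 and GPX8 fell (background 41.9%, of which 19.2% higher and 22.7% lower). The 3 responses use separate libraries, and their differences are tested below.

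SOD1, the copper and zinc enzyme of the cytosol (chr21:31659622-31668931), had 2615, 2567 and 2584 reads in PBS cells, 2602, 2546 and 2548 in cNSF cells and 2654, 2574 and 2625 in fNSF cells. After tBHP it had 4039, 4300 and 4486 in PBS cells, 4245, 4585 and 5640 in cNSF cells and 4304, 4042 and 4670 in fNSF cells. Every library after tBHP lay above every library without it, and the highest was cNSF + tBHP replicate 3. The differences were 0.72 on the log2 scale in PBS cells (SE 0.0832, limma adjusted p = 1.46e-06), 0.90 in cNSF cells (adjusted p = 1.23e-07) and 0.73 in fNSF cells (adjusted p = 1.73e-06). Without the cNSF + tBHP replicate 3 library the cNSF value was 0.78.

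SOD2, the manganese enzyme of the mitochondrial matrix (chr6:159669057-159745186), moved the other way. It had 1502, 1440 and 1580 reads in PBS cells, 1488, 1449 and 1445 in cNSF cells and 1533, 1535 and 1569 in fNSF cells, and after tBHP 1083, 1151 and 1041, 1003, 1139 and 1078, and 1179, 1357 and 1014, in the same order. All 9 libraries after tBHP lay below all 9 without it, the nearest being fNSF + tBHP replicate 2. On the log2 scale the differences were -0.47 (SE 0.0866, limma adjusted p = 0.000234), -0.45 (0.000369) and -0.40 (0.00129) in PBS, cNSF and fNSF cells. SOD2 overlaps WTAP on the opposite strand, with 1074 to 1697 normalized reads, and the library kit does not mark the strand.

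SOD3, the dismutase secreted to the matrix (chr4:24789912-24800842), was scarce, with 26.1, 30.8 and 36.3 reads in PBS cells against 72.6, 47.9 and 46.0 after tBHP. In cNSF cells the values were 30.5, 31.3 and 35.2 against 51.6, 50.7 and 64.0, and in fNSF cells 38.3, 27.6 and 28.9 against 41.2, 36.2 and 51.3. The groups did not overlap in PBS and cNSF cells and overlapped in fNSF cells. tBHP gave log2 differences of 0.80 (SE 0.209, limma adjusted p = 0.00403), 0.76 (0.00599) and 0.43 (0.110). SOD3 has the highest GC content of the panel, 68.2% in its transcripts, and with each library's trend over GC content and length removed the differences were 0.42 in PBS cells (adjusted p = 0.0944) and 0.30 in cNSF cells (0.225).

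CAT (chr11:34438925-34472062) passed in no pre-incubation. It had 950, 946 and 889 reads in PBS cells and 1015, 1046 and 1002 after tBHP, groups that do not overlap, with a log2 difference of 0.14 (95% interval -0.01 to 0.28, limma adjusted p = 0.108). In cNSF cells the 3 libraries without tBHP spanned 851 to 944 and those after it 899 to 1007, and in fNSF cells 933 to 965 and 948 to 1058. The differences were 0.11 and 0.07 (adjusted p = 0.180 and 0.470), and no interval reached beyond 0.28. Under TMM scaling the values in PBS and cNSF cells were 0.20 and 0.17 and passed (adjusted p = 0.0188 and 0.0403). With each library's trend over GC content and length removed, CAT was 0.32, 0.25 and 0.14 higher in PBS, cNSF and fNSF cells and passed in all 3 (adjusted p = 9.74e-05, 0.00114 and 0.0473).

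**Figure D2:**
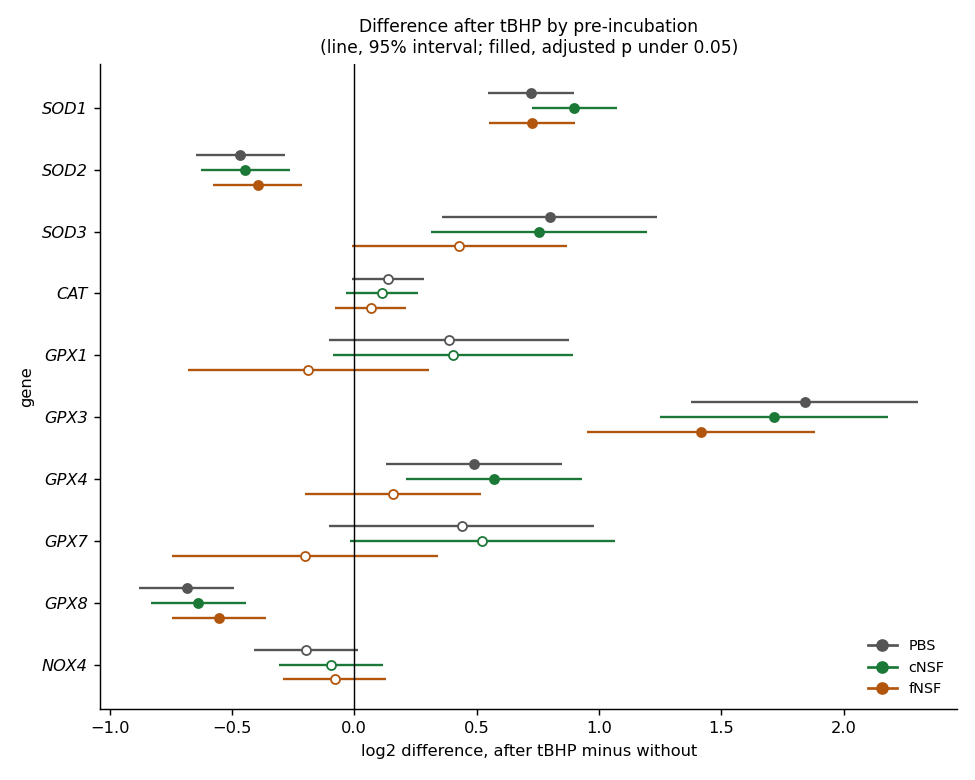
Log2 difference after tBHP (horizontal axis) of each gene in PBS, cNSF and fNSF cells; lines are 95% intervals and filled points have an adjusted p under 0.05. SOD1 and GPX3 lie to the right and SOD2 and GPX8 to the left of 0 in all 3 pre-incubations, and GPX1 and GPX7 have intervals that include 0 in all 3.

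Among the peroxidases with selenocysteine, GPX3 (chr5:151020438-151028993) gave the largest rise of the panel from the lowest level. It had 21.2, 20.5 and 19.0 reads in PBS cells against 70.4, 86.0 and 70.0 after tBHP, 16.2, 27.4 and 26.9 against 76.9, 70.0 and 86.4 in cNSF cells, and 32.4, 18.7 and 24.2 against 73.7, 55.3 and 74.0 in fNSF cells. No library after tBHP overlapped any without it, the nearest being fNSF + tBHP replicate 2 at 55.3 and fNSF replicate 1 at 32.4. Differences on the log2 scale were 1.84 (SE 0.221, limma adjusted p = 2.40e-06), 1.72 (5.83e-06) and 1.42 (5.46e-05).

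GPX4, which reduces lipid hydroperoxides in membranes (chr19:1103926-1106791), had 2908, 2800 and 2664 reads in PBS cells and 4306, 3660 and 3810 after tBHP. In cNSF cells it had 2986, 2788 and 2747 against 3761, 3860 and 5180, and in fNSF cells 2767, 2554 and 2822 against 3262, 2055 and 4146. The groups were apart in PBS and cNSF cells, whereas fNSF + tBHP replicate 2 fell below every library without tBHP. The log2 differences were 0.49 (SE 0.171, limma adjusted p = 0.0232), 0.57 (0.00949) and 0.16 (0.484). The calls changed with some libraries left out. In PBS cells the size changed little, at 0.49, 0.46 and 0.42 without PBS replicate 2, PBS replicate 3 or PBS + tBHP replicate 1. The limma adjusted p was then 0.0528, 0.0702 and 0.0882, in fits where 43.9%, 43.7% and 44% of all genes passed. The cNSF value was 0.42 without cNSF + tBHP replicate 3 (0.0658), and the fNSF value was 0.44 without fNSF + tBHP replicate 2 (0.00327). With the GC and length trend removed GPX4 passed in all 3 pre-incubations at smaller sizes, 0.19, 0.14 and 0.11.

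GPX1, the abundant cytosolic peroxidase (chr3:49357171-49358600), had 2679, 2637 and 2570 reads in PBS cells and 3952, 3131 and 3280 after tBHP. In cNSF cells it had 2960, 2741 and 2627 against 3200, 3427 and 4504, and in fNSF cells 2680, 2491 and 2543 against 2532, 1264 and 3591. The libraries after tBHP lay above those without in PBS and cNSF cells and on both sides of them in fNSF cells. The log2 differences were 0.39 (95% interval -0.10 to 0.88, limma adjusted p = 0.177), 0.40 (-0.09 to 0.90, 0.158) and -0.19 (-0.68 to 0.30, 0.553). Fitted on the compared groups alone, the first 2 passed at the same sizes (adjusted p = 0.00159 and 0.0146), beside 55.9% and 54.4% of all genes in those fits. With the GC and length trend removed the values in PBS, cNSF and fNSF cells were 0.093, -0.022 and -0.24 (adjusted p = 0.329, 0.828 and 0.0140). In fNSF cells the value was 0.23 without replicate 2 of fNSF + tBHP (adjusted p = 0.153) and -0.52 without its replicate 3 (0.0333), so its direction rested on 1 library.

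Of the peroxidases with cysteine, both of the endoplasmic reticulum, GPX8 fell in all 3 pre-incubations and GPX7 passed in none. GPX8 (chr5:55160118-55167071) had 4725, 4716 and 4742 reads in PBS cells, 4592, 4569 and 4637 in cNSF cells and 4908, 4927 and 4890 in fNSF cells. After tBHP it had 2565, 3202 and 3096 in PBS cells, 2864, 3010 and 3003 in cNSF cells and 3286, 3954 and 2887 in fNSF cells. Every library after tBHP was below every library without it. The log2 differences were -0.68 (SE 0.0919, limma adjusted p = 8.02e-06), -0.64 (2.00e-05) and -0.55 (0.000104). GPX8 has the lowest GC content of the panel, 39.9%, and with the GC and length trend removed the values were -0.25, -0.34 and -0.33 and still passed. It lies within CDC20B on the opposite strand, which had at most 7.62 normalized reads.

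GPX7 (chr1:52602372-52609051) had 26.1, 23.3 and 25.1 reads in PBS cells against 43.1, 21.8 and 41.6 after tBHP, with replicate 2 apart from the other two. In cNSF cells it had 29.6, 21.5 and 19.6 against 32.7, 28.4 and 41.7, and in fNSF cells 28.4, 32.5 and 27.0 against 21.9, 22.3 and 33.0. The groups overlapped in each pre-incubation, and the log2 differences were 0.44, 0.52 and -0.20 (limma adjusted p = 0.166, 0.0992 and 0.565). Without PBS + tBHP replicate 2 the PBS value was 0.75 (adjusted p = 0.0160).

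NOX4 (chr11:89324356-89498187), the 1 oxidase among the 10, had 308, 341 and 324 reads in PBS cells and 278, 286 and 283 after tBHP. The groups did not overlap, but the log2 difference of -0.20 missed the threshold (95% interval -0.41 to 0.01, limma adjusted p = 0.111). In cNSF cells 311 to 341 reads stood against 274 to 354, and in fNSF cells 345 to 357 against 289 to 354. The differences there were -0.09 and -0.08 (adjusted p = 0.448 and 0.553). With the GC and length trend removed all 3 values turned positive, 0.15, 0.16 and 0.090, and none passed.

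By the order of single libraries, 6 members lay wholly above and 3 wholly below their PBS controls after tBHP, against 63.8% of all genes that did not overlap in either direction. In cNSF cells these were 5 and 2 members (63.7% of all genes), and in fNSF cells 2 and 2 (48.7%). Over all 9 libraries against 9, SOD1 and GPX3 were above and SOD2 and GPX8 below, and 27.8% of all genes did not overlap. The median log2 difference of the 10 members was 0.41 in PBS cells, 0.46 in cNSF cells and -0.01 in fNSF cells, beside -0.03 to 0.00 over all genes tested.

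The libraries after tBHP differed among themselves more than those without. The median SD of a gene within its group was 0.0761 on the log2 scale without tBHP and 0.206 after it, and GPX1 went from 0.0618 to 0.479, GPX4 from 0.0682 to 0.339 and GPX8 from 0.00742 to 0.167. GPX3 went the other way, from 0.325 to 0.189, and CAT went from 0.0573 to 0.070. Within the libraries after tBHP, genes of high GC content moved together. The median deviation of the 1253 genes of highest GC from the mean of the 9 libraries after tBHP was -0.81 in fNSF + tBHP replicate 2, where GPX1 deviated by -1.27, GPX4 by -0.84 and GPX8 by 0.36. It was 0.34 in cNSF + tBHP replicate 3, where GPX1 and GPX4 deviated by 0.56 and 0.49 but also SOD1, with 44.7% GC, by 0.34 and GPX7, with 50.4%, by 0.43, and 0.31 in PBS + tBHP replicate 1, where SOD3 and GPX1 deviated by 0.52 and 0.37. The transcripts of GPX1 and GPX4 have 62.6% and 62.9% GC, beside a median of 49.1% over genes tested. The part of these library differences in the results was not tested beyond the values given without those libraries and with the trend removed.

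**Figure D3:**
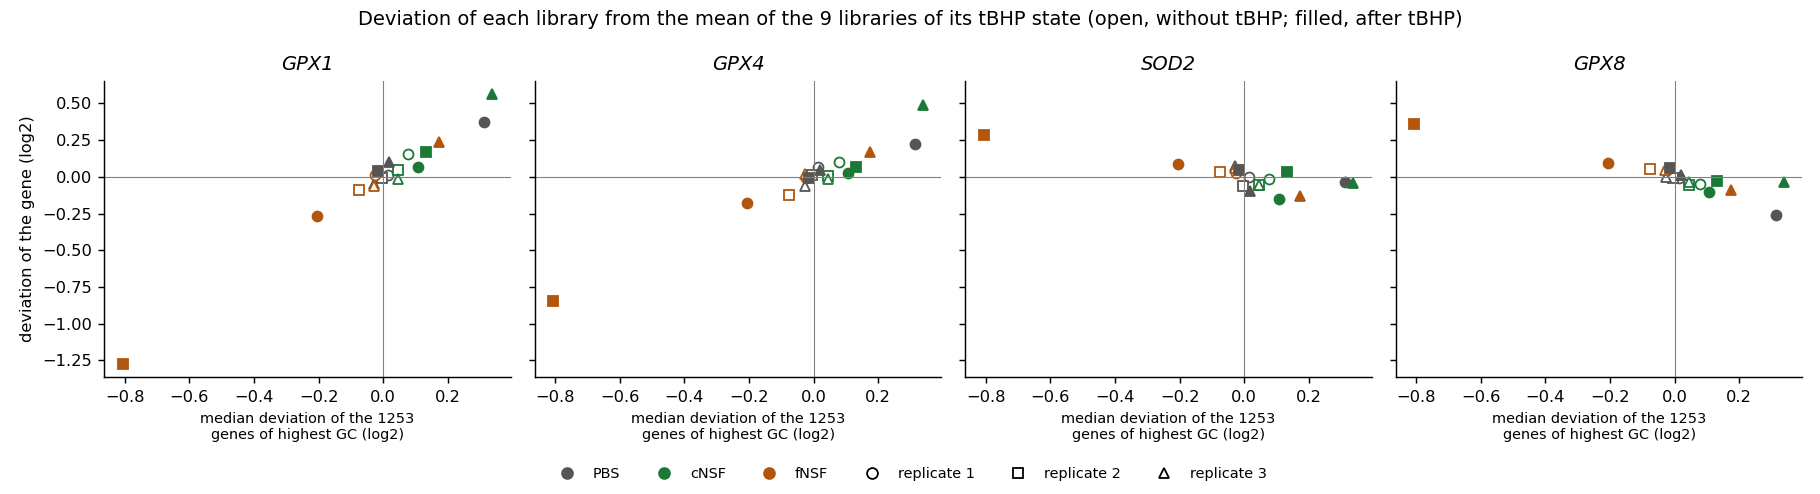
Deviation of GPX1, GPX4, SOD2 and GPX8 (vertical axes, log2) in each of 18 libraries against the median deviation of the 1253 genes of highest GC content (horizontal axes, log2), each taken from the mean of the 9 libraries of the same tBHP state; shapes are replicates and filled symbols are after tBHP. fNSF + tBHP replicate 2 lies farthest left, at -0.81, with GPX1 at -1.27 and GPX8 at 0.36.

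HA alone was compared in the cells that were not given tBHP. In cNSF against PBS cells, limma called none of the 10 members, 0 at an unadjusted p under 0.05 (0.921% of all genes), and edgeR and DESeq2 called 0 (background 0% by each). The members' log2 differences ran from -0.09 (GPX7) to 0.17 (GPX3). The same counts of 0 by all of these held for fNSF against PBS cells, where the differences ran from -0.04 (GPX4) to 0.26 (GPX3) and 0.796% of all genes had such a p, and for cNSF against fNSF cells, from -0.32 (GPX7) to 0.11 (GPX1) and 1.51% of all genes, with a background of 0% after adjustment by limma and edgeR, and of 0.00318% (1 gene) by DESeq2 for fNSF against PBS cells. The 95% intervals reached 0.146 to either side of the difference for CAT, the narrowest, and 0.543 for GPX7, the widest, in all of these comparisons. They rest on a spread shared with the libraries after tBHP, where the median SD of a gene was 0.206 against 0.0761 without. The spread was wider after tBHP for every member but GPX3. A count of 0 here therefore does not show that HA left these genes unchanged.

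GPX8 was the member with the tightest replicates in these cells, and its groups stood apart, with fNSF above PBS and PBS above cNSF in every library. Its differences were small on the log2 scale, -0.04 for cNSF against PBS, 0.05 for fNSF against PBS and -0.09 for cNSF against fNSF (95% interval -0.29 to 0.10, limma adjusted p = 1.00). Fitted on the cNSF and fNSF libraries without tBHP alone, where the larger spread after tBHP does not enter, the last difference passed (adjusted p = 0.0311), as did 7.16% of all genes. With the GC and length trend removed, GPX8 was 0.035 higher in cNSF than in PBS cells, so the direction of that difference turned. In cNSF against PBS cells GPX8 was the 1 member without overlap (15.2% of all genes), in fNSF against PBS cells GPX7, GPX8 and NOX4 were above (14%), and in cNSF against fNSF cells SOD2, GPX8 and NOX4 were below (25%).

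After tBHP, the question was whether the pre-incubation left a difference in the stressed cells. In cNSF against PBS cells, limma called 0 members (background 0%), 0 had an unadjusted p under 0.05 (8.64% of all genes) and edgeR and DESeq2 called 0, where they called 0 and 6 genes in all. SOD1 came nearest, 0.16 higher on the log2 scale (95% interval -0.01 to 0.34, limma adjusted p = 0.591), and at 0.05 without cNSF + tBHP replicate 3. None of the 10 was free of overlap, against 9.57% of all genes.

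In fNSF against PBS cells after tBHP, limma called 0 members and 19 genes in all (0.139%), and edgeR and DESeq2 called 0 members, where they called 36 and 449 genes in all (0.263% and 1.43%). At an unadjusted p under 0.05 were 3 members, GPX1 at -0.61 (95% interval -1.10 to -0.12, limma adjusted p = 0.161), GPX4 at -0.37 (0.210) and NOX4 at 0.22 (0.200), beside 22.7% of all genes. NOX4 was the 1 member whose libraries did not overlap (12% of all genes), with 278 to 286 reads in PBS + tBHP and 289 to 354 in fNSF + tBHP. Without fNSF + tBHP replicate 2, GPX1 and GPX4 were at -0.19 and -0.09. Without fNSF + tBHP replicate 3, 5 members passed, GPX1 (-0.94, adjusted p = 0.00308) and GPX4 (-0.60, 0.00787) as lower and SOD2, GPX8 and NOX4 as higher, beside 29.4% of all genes.

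In cNSF against fNSF cells after tBHP, limma called 0 members and 0 genes in all (0%), and edgeR and DESeq2 called 0 members, where edgeR called 0 genes in all and DESeq2 800 (2.54%). At an unadjusted p under 0.05 were GPX1 and GPX4, beside 32.2% of all genes. GPX1 was 0.70 higher in cNSF cells (95% interval 0.21 to 1.19, limma adjusted p = 0.0981) and GPX4 0.48 higher (0.12 to 0.84, 0.0981), with cNSF libraries at 3200 to 4504 and fNSF libraries at 1264 to 3591 for GPX1. No member was free of overlap, against 13.4% of all genes. Without fNSF + tBHP replicate 2 the values fell to 0.28 and 0.20, and without fNSF + tBHP replicate 3 they were 1.04 and 0.70 and passed (adjusted p = 0.00132 and 0.00221), with GPX8 and SOD2 also passing as lower in cNSF cells, beside 40.8% of all genes. With the GC and length trend removed they were 0.23 and -0.0013.

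**Figure D4:**
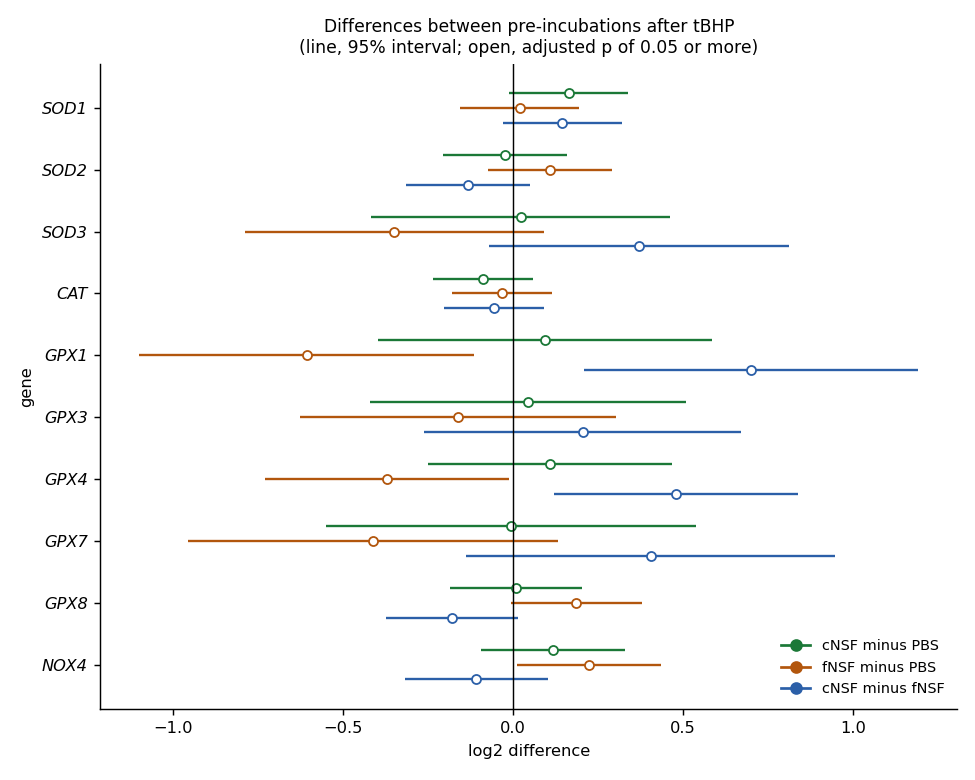
Log2 differences between pre-incubations after tBHP (horizontal axis) for each gene, as cNSF minus PBS, fNSF minus PBS and cNSF minus fNSF; lines are 95% intervals, and open points have an adjusted p of 0.05 or more. All points are open, and the cNSF minus fNSF intervals of GPX1 (0.21 to 1.19) and GPX4 (0.12 to 0.84) do not include 0.

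The tBHP responses themselves were compared between pre-incubations as interactions. By limma none of the 10 members passed in any of the 3 differences (background 0% each), 0 had an unadjusted p under 0.05, which 4.06%, 6.88% and 3.89% of all genes had for cNSF minus PBS, fNSF minus PBS and cNSF minus fNSF, and edgeR and DESeq2 called 0. The nearest was GPX7, whose response was 0.73 larger in cNSF than in fNSF cells (95% interval -0.04 to 1.49, limma adjusted p = 0.710), followed by GPX1 at 0.59 (-0.10 to 1.29) and GPX4 at 0.41 (-0.09 to 0.92). The values of GPX1 and GPX4 were 0.17 and 0.13 without fNSF + tBHP replicate 2 and 0.93 and 0.64 without its replicate 3 (adjusted p = 0.0803 and 0.0870). GPX4, called in PBS and cNSF cells and not in fNSF cells, was therefore not shown to respond differently between them.

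The genes that serve these enzymes were listed as well. CCS, the chaperone that loads copper into SOD1, had 238 to 274 reads in PBS cells and 284 to 347 after tBHP, with a log2 difference of 0.23 that did not pass (limma adjusted p = 0.124), and rose by 0.43 in cNSF cells (0.00723), while the difference in fNSF cells was 0.0039 (0.983). It was the 1 gene tested of a list of 4, since GPX2, GPX5 and GPX6 lay under the filter. In PBS, cNSF and fNSF cells 51.1%, 50.8% and 41.9% of all genes passed. Of 15 NADPH oxidase relatives and subunits 3 were tested, and 2 rose in cNSF cells while 0 passed in PBS and in fNSF cells. CYBA, the membrane partner of NOX4, passed in no pre-incubation, with log2 differences of 0.49, 0.57 and -0.03 in PBS, cNSF and fNSF cells (limma adjusted p = 0.101, 0.0569 and 0.932). POLDIP2, a further partner of NOX4, rose by 0.20 on the log2 scale in cNSF cells (limma adjusted p = 0.0235) and had differences of 0.15 and 0.09 in PBS and fNSF cells that did not pass (0.0929 and 0.302).

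Selenocysteine is inserted by a small set of factors, and 1 of the 7 tested rose in PBS cells while none fell (median log2 difference -0.03), where 51.1% of all genes passed. This was SEPHS2, the selenophosphate synthetase that is itself a selenoprotein. It went from 898 to 933 reads to 1311 to 1414, a log2 difference of 0.57 that was 0.65 in cNSF and 0.58 in fNSF cells, with no overlap in any of them. In cNSF cells 2 factors rose and 1 fell (50.8% of all genes passed), and in fNSF cells 1 rose and 1 fell (41.9%). Of 13 other selenoproteins 12 were tested, and 3 rose and 4 fell in PBS cells, with a median of 0.20. SELT and EPT1, now named SELENOT and SELENOI, fell by 1.14 and 1.10 on the log2 scale in PBS cells, and SELK, now SELENOK, rose by 0.81. SELT had 2250 to 2604 reads in PBS cells and 1010 to 1200 after tBHP. In cNSF cells 4 selenoproteins rose and 4 fell, and in fNSF cells 2 rose and 3 fell. These shares, 7 of 12 in PBS cells, 8 of 12 in cNSF cells and 5 of 12 in fNSF cells, stand beside 51.1%, 50.8% and 41.9% of all genes.

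**Figure D5:**
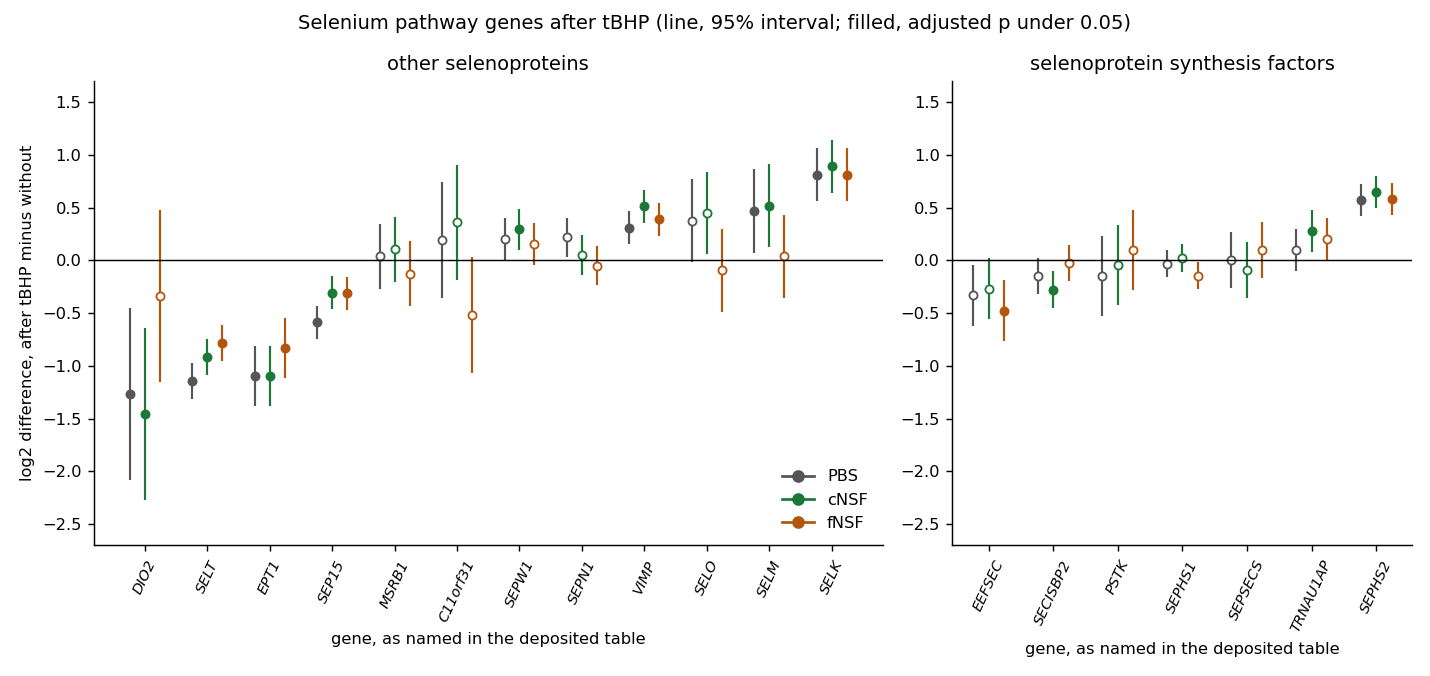
Log2 difference after tBHP (vertical axes) of 12 other selenoproteins and 7 factors of selenoprotein synthesis, each gene in PBS, cNSF and fNSF cells; lines are 95% intervals and filled points have an adjusted p under 0.05. SELT and EPT1 lie below 0 and SELK and SEPHS2 above 0 in all 3 pre-incubations.

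Catalase shares the peroxisome with oxidases that make hydrogen peroxide. Of 11 peroxisomal oxidases and factors of peroxisome import or division 10 were tested, and 1 rose and 1 fell in PBS cells (median -0.08), 1 and 3 in cNSF cells and 1 and 2 in fNSF cells, where 51.1%, 50.8% and 41.9% of all genes passed. ACOX3, an acyl-CoA oxidase, had 431 to 462 reads in PBS cells and 360 to 378 after tBHP, a log2 difference of -0.27 (limma adjusted p = 0.0250), and was -0.24 and -0.39 in cNSF and fNSF cells. In the comparisons of cNSF against PBS and of cNSF against fNSF cells, with or without tBHP, no gene of these lists passed, beside 0% of all genes. In fNSF against PBS cells 1 did, SELT after tBHP (0.44 higher, limma adjusted p = 0.0393), beside 0.139% of all genes. Without fNSF + tBHP replicate 1 or 2, or without PBS + tBHP replicate 3, no gene at all passed in that comparison.

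The genes whose log2 values followed a member most closely over the 18 libraries were taken from all genes with a mean of at least 100. For GPX3 these were DDB2, TSPYL2 and THSD1, with a Pearson r of 0.970, 0.969 and 0.969, and for GPX8 CFL2 (0.996), SYNCRIP (0.995) and CUL4B (0.994). These values describe 18 points that fall into cells with and without tBHP and share library depth and base composition, and no test was made of them.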

How the data were processed

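RNA of 18 IMR90 libraries (TruSeq RNA V2, not strand-specific, single-end 100 nt) was sequenced by the authors. The submitters' processing notes name Trimmomatic 0.32, STAR 2.5.2b, featureCounts of Subread 1.5.0-p3, DESeq2 and GRCh38.p7, and the annotation is not given in the sources used here. The values deposited are a signal made by the authors from reads per gene scaled with a DESeq2 size factor per library, and whole reads were recovered for 100% of values (tolerance 0.01 of a read). The table also holds p-values, q-values and ranks of the authors, which were not used (3 columns). Because the deposited values are no counts, limma 3.58.1 (R 4.3.3, trend) on log2(value + 1) was the main test, two-sided, with 1 coefficient per group over all 18 libraries, for the 13686 genes with a mean of at least 10, with Benjamini-Hochberg adjustment at 0.05. edgeR 4.0.16 (quasi-likelihood) and DESeq2 1.42.0 were run on the recovered reads, DESeq2 on all 31441 genes with a read, over which its shares of genes called are given. The limma, edgeR and DESeq2 fits and the removal of the GC trend were tested on simulated data, and the other alternatives were not. With a log2 change of 1 in 200 genes, limma, edgeR and DESeq2 recovered 75%, 73.5% and 74% of them. Of their calls 5.66%, 8.70% and 11.9% were false. For limma this was 10.9% with a GC trend added and 6.62% with it removed again. The simulated spread was the same in all groups, unlike that of these data. Groups came from the titles of the libraries. Transcript length, GC content and codons came from GENCODE 29. All 10 genes are named. Of each list, up to 3 called genes with a mean of at least 100 and the largest tBHP responses in PBS cells are named, and CCS, GPX2, GPX5, GPX6, CYBA, POLDIP2 and LUM were named after their values were seen. A further gene of the lists is not reported here. For GPX3 and GPX8 the 3 genes of highest Pearson r are named. Members and lists were chosen with earlier results of these data known. Alternatives were other pseudocounts, filters, scalings, tests, array weights, removal of the GC and length trend, a replicate block and each library left out. Library depth was 20261103 to 26287660 reads, and chi-square per degree of freedom between replicate libraries was 1.48 to 2.69 without tBHP and 2.86 to 71.2 after it.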

Additional observations from a re-analysis of the deposited data

How the results depend on the processing

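Of 751 values of named members under an alternative, 701 kept their direction and their side of the threshold, 30 passed only there, 6 passed only in the reported fit and 14 changed sign. SOD1, SOD2 and GPX8 kept both in all 3 tBHP responses under every alternative run, and GPX3 under all but the higher minimum on mean level, below which it lay and was not tested. The number of members called moved by more than 1.5 times under 3 settings and 1 left-out library: array weights called 10 members in PBS cells (64.4% of all genes in that fit), removal of the GC and length trend called 7 in fNSF cells (56.1%), and a fit of the compared groups alone called 1, GPX8, for cNSF against fNSF without tBHP (7.16%). Leaving out each library in turn gave 5 to 7 calls in PBS cells (43.7% to 49.2% of all genes), 5 to 6 in cNSF cells (43.3% to 48%) and 4 to 5 in fNSF cells (34.9% to 50.6%), 0 to 5 for fNSF against PBS and 0 to 4 for cNSF against fNSF after tBHP, both highest without fNSF + tBHP replicate 3. Without both cNSF + tBHP replicate 3 and fNSF + tBHP replicate 2, an alternative chosen after seeing the data, GPX1 was 0.23 in fNSF cells and the difference of GPX4 responses, cNSF minus fNSF, was -0.014. Signs also changed for GPX1 in fNSF cells with edgeR (0.0032), with array weights (0.098) and without fNSF + tBHP replicate 2 (0.23), for GPX7 in fNSF cells with array weights (0.034), for GPX4 (-0.067) and NOX4 (0.015) in fNSF cells without fNSF + tBHP replicate 3, and with the GC and length trend removed for NOX4 (0.15, 0.16 and 0.090 in PBS, cNSF and fNSF cells), for GPX1 in cNSF cells (-0.022), for GPX8 in cNSF against PBS cells (0.035) and for GPX4 in cNSF against fNSF cells after tBHP (-0.0013). Over the left-out libraries GPX1 in fNSF cells ran from -0.52 to 0.23, GPX4 from -0.067 to 0.44 and NOX4 from -0.13 to 0.015, and the GPX4 difference of responses, cNSF minus fNSF, reached 0.64. The cause was not tested. TMM scaling moved the median of all genes in the tBHP responses by at most 0.06.

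The replicate numbers of the labels were not shown to pair the samples. The deviations of libraries with the same number correlated at -0.12 to 0.33, and in no comparison were all pairs over 0.1. Libraries of unlike number were not correlated for reference, so these values cannot exclude pairing. With the replicate number as a block, limma called 6, 6 and 4 members in the tBHP responses of PBS, cNSF and fNSF cells. In that fit 52.8%, 52.4% and 43.4% of all genes passed, against 51.1%, 50.8% and 41.9% without the block. The block fit called 0 members in each of the 9 other comparisons, so every count of members was as reported.

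Depth limits GPX3, GPX7 and SOD3, with under 100 reads in every library, most. Intervals rest on a spread shared by all groups, although the median spread over genes was wider after tBHP than without, and that of GPX3 narrower.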

Other observations

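GPX1P1, a processed copy of GPX1, had 3.19 to 38.6 normalized reads over the 18 libraries (median 20.4), and GPX1P2 had at most 1.05. ACAT2, which overlaps the second gene model of SOD2 in GENCODE 29, had 757 to 1049. SEPP1, the selenium transporter of plasma, had 3.46 to 10.3 reads in PBS cells and at most 2.18 after tBHP, under the filter on low values. CYBB and NOX1, the oxidases of phagocytes and colon, had at most 5.32 normalized reads and none in any library.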
